A study of Mus musculus with 27 samples.

Results

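The genes described here are 36 listed markers and machinery of the cell cycle and of DNA replication, taken by symbol from a list of proliferation genes. That list was chosen with earlier results of these data known. A probe set matched 34 of the 36 symbols, out of 20239 named genes on the array; Pcna and Ccnb1 are not analysed here. Female mice aged 11 weeks gave RNA of the right lung, which was hybridised to Mouse Gene 1.0 ST arrays, which report 1 value per gene. Each of 9 inbred strains gave 3 mice, so there were 27 arrays, and all lungs were labelled as normal tissue. The labels also rank the strains by their spontaneous pulmonary adenomas. Severity and frequency were both labelled increased in A/J, C57BL/6J and DBA/2J. A further class, with severity increased and frequency decreased, held C57L/J, C3H/HeJ, 129S1/SvlmJ and BALB/cJ. Both were labelled decreased in KK/HlJ and MRL/MpJ. The labels name no treatment or transgene, and the adenoma class belongs to the strain, not to the single mouse, so it says nothing of tumours in these lungs. All values are log2 signal as deposited, a scale on which a difference of 1 is a doubling.

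A dividing cell first licenses its replication origins with the MCM helicase and makes deoxynucleotides, then copies its DNA, and later condenses and separates the copied chromosomes on the mitotic spindle. The E2F and RB proteins gate the first set of genes. The DREAM complex holds cell cycle genes down in resting cells, while MYB-MuvB and FOXM1 drive the second, mitotic set late in the cycle. Mitotic genes often carry paired CCAAT and CHR promoter elements. In the adult lung most cells are quiescent, and the RNA of these genes comes from the few that cycle, which may be epithelial, endothelial or immune cells. In whole tissue, fewer cells of a type and less RNA per cell cannot be told apart.

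Array medians lay between 6.24 and 6.37, no arrays were identical, and 26 of the 27 arrays correlated best with an array of their own strain. Lung epithelial markers, from surfactant genes to Foxj1, summed to 33800 to 40000 linear signal units in every array, and none of the 10 had a mean as low as the dimmest control genes described next. C3H/HeJ replicate 2 stood apart. The summed signal of 12 skeletal muscle genes reached 11000 in it, against 435 to 689 in the arrays of the other strains, so the counts of calls and ranks for C3H/HeJ are given with and without it. Arrays carry run numbers that go strain by strain, so that the order of the runs cannot be told apart from strain. The cell cycle genes were of modest signal, with means from 3.75 for Ttk to 7.38 for Mcm7. Y-linked genes, absent from the female genome, gave strain means of up to 3.56, and Sry of up to 5.25. No listed gene had a mean below the first of these levels and 12 of 34 had one below the second. Their median SD within a strain was 0.157, against 0.133 over all genes.

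Promoters are shown because the levels of these genes correlated across strains and because such elements are known from many cell cycle genes. RefSeq windows of 250 bases upstream of the start site (GRCm38.p6) were held for 28 of the 34 genes. Capitals mark 3 kinds of match on either strand, the CCAAT box (CCAAT, reading ATTGG on the other strand), the CHR element (TTTGAA, reading TTCAAA on the other strand) and an E2F site (TTCGCGC and its variants TTGGCGC and TTCCCGC, or the complement of each). In Mcm6 matches to E2F strings on opposite strands overlap. The sequences below belong to 6 of the genes that separated the most strain pairs.
Mcm6 (chr1:128359706-128359955, minus strand): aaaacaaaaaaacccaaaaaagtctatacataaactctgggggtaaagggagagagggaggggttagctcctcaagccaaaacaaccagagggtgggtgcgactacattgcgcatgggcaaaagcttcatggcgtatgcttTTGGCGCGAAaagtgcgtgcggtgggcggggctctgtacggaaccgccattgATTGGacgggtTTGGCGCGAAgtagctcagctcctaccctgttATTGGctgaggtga
Bub1b (chr2:118597961-118598210, plus strand): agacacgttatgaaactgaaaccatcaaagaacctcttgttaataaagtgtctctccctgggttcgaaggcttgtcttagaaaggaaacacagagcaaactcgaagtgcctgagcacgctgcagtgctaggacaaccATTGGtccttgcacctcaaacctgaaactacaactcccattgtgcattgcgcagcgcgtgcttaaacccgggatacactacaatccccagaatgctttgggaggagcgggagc
Mki67 (chr7:135716380-135716629, minus strand): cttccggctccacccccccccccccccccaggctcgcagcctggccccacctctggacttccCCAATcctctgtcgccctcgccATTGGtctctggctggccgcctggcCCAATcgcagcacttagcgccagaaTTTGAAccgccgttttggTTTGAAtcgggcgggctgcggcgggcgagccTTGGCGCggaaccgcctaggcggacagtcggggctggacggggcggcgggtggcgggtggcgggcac
Top2a (chr11:99024190-99024439, minus strand): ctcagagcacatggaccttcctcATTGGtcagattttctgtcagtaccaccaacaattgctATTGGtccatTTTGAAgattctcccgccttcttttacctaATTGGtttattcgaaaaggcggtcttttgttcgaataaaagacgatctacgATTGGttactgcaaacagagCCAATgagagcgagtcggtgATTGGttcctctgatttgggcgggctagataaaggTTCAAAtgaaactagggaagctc
Prc1 (chr7:80294201-80294450, plus strand): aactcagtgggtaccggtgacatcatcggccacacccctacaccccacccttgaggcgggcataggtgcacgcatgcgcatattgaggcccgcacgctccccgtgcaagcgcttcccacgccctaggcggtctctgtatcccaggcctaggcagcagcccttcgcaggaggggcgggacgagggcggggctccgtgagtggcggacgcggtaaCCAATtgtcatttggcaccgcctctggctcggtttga
Kif11 (chr19:37376132-37376381, plus strand): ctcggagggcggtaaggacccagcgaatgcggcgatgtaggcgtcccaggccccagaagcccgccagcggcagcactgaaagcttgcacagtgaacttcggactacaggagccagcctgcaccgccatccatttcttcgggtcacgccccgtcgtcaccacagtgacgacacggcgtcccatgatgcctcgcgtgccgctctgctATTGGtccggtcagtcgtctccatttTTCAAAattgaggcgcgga

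The Mcm6 window, of a replication helicase gene, held 4 E2F matches and no CHR match. The windows of Mki67 and Top2a held 2 CHR matches each, beside 3 and 6 CCAAT boxes. Kif11 held 1 CHR match 13 bases from the start site and 1 CCAAT box 40 bases from it. Over all 28 windows, 23 (82.1%) held a CCAAT box, against 34.5% of 27025 mouse promoter windows of that length. A CHR match was found in 9 (32.1%), each time with a CCAAT box, while 16.3% of all windows held a CHR match and 5.7% held both. E2F strings were found in 6 (21.4%), against 6.8% of all windows. These are matches of letters and not shown to be bound sites. The windows are those of the reference assembly, and whether they or the probed sequences differ between the 9 strains was not tested.

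Cell cycle genes differed among the strains, and most of that difference lay in C57BL/6J, where mitotic genes were higher, and in 129S1/SvlmJ, where many of them were lower. In limma's moderated F test across the strains, 23 of the 34 passed at an adjusted p under 0.05 (Benjamini-Hochberg over all named genes), which is 67.6% against 28.9% of all named genes. The widest range of strain means was that of Mcm6, 2.99-fold, followed by Top2a (2.65-fold), Prc1 (2.27-fold), Mki67 (2.20-fold), Bub1 (2.11-fold) and Bub1b (2.06-fold). The other members ranged over less than 2-fold, down to 1.15-fold for Aurkb. The 11 that did not pass were Mcm4, Mcm5, Mcm7, Cdc6, Tyms, Foxm1, Cdc20, Aurka, Aurkb, Birc5 and Cdca8. Ttk and E2f1 passed narrowly (adjusted p = 0.0428 and 0.0404). Ttk lost its call in 21 of 33 alternative settings. Of 34 settings each, E2f1 lost it in 10, Cdk1 in 9, Mcm3 in 7, Ccnb2 in 3, and Mcm2 and Ube2c in 1.

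**Figure D1:**
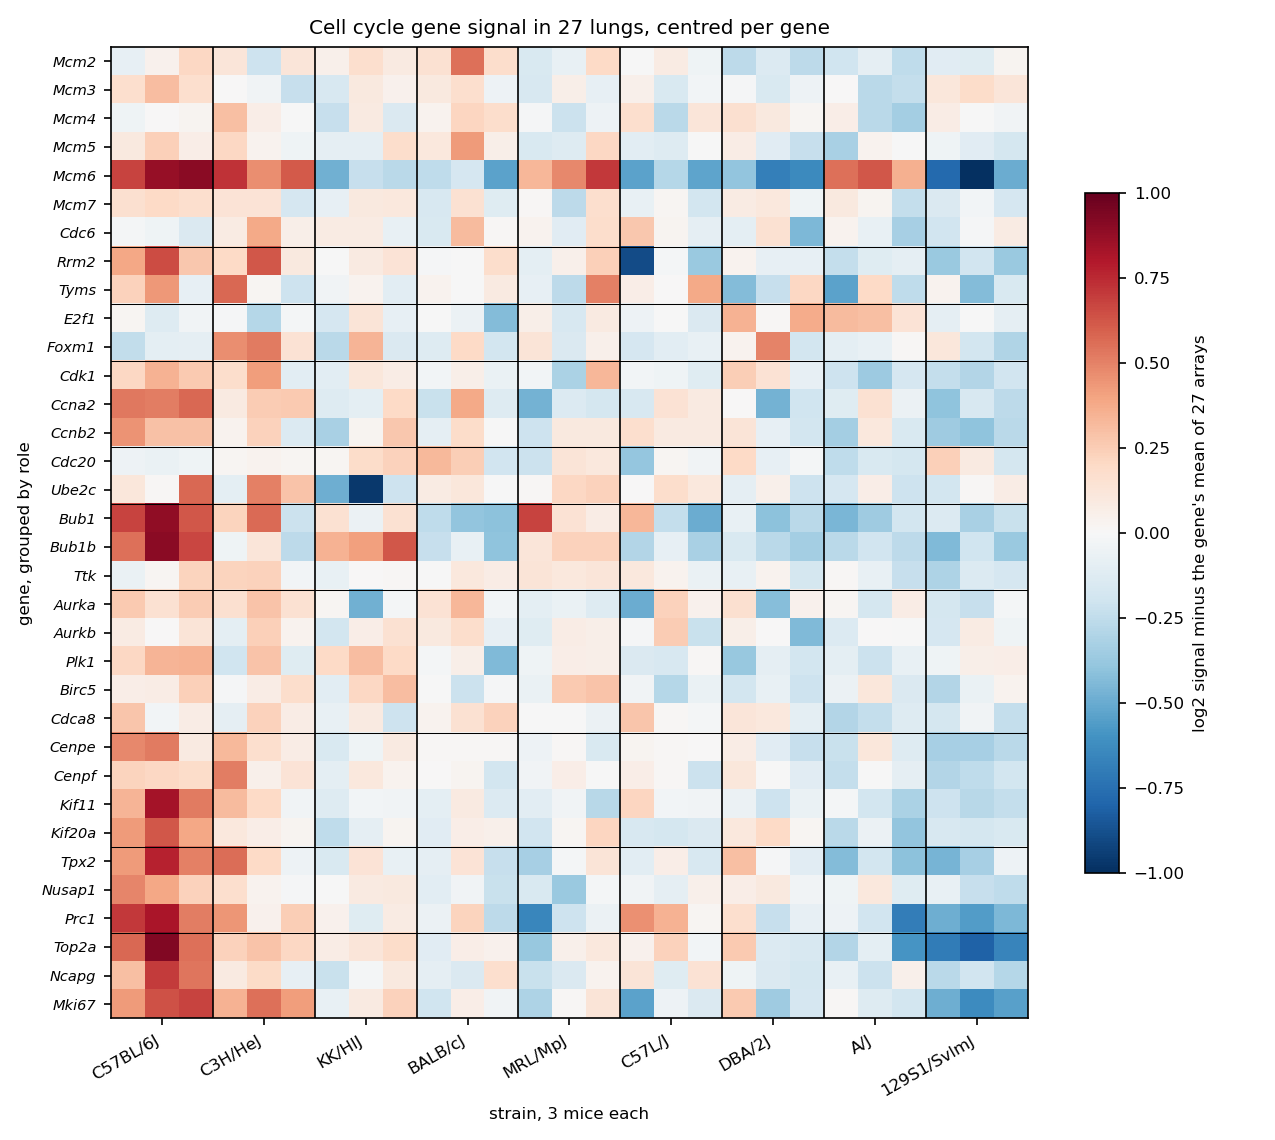
Log2 signal of 34 cell cycle genes (rows, grouped by role) in 27 lungs (columns, 3 mice per strain), each minus the gene's mean over all arrays. The 3 C57BL/6J mice are mostly red, with 28, 29 and 29 of 34 genes above their own mean, and the 3 129S1/SvlmJ mice mostly blue, with 5, 5 and 6.

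In C57BL/6J, 18 of the 34 genes were higher than the mean of the other 8 strains and 0 were lower, against 4.06% of all named genes higher and 4.11% lower in the same contrast. The median difference was 0.28 over the members and -0.05 over all named genes. C57BL/6J had the highest strain mean for 22 of 34 members, as it did for 7.1% of all named genes. It had the lowest for 1, against 21.3% of all named genes. Every mouse of the strain showed it: the median member lay 0.24, 0.32 and 0.25 above its mean over all arrays in the 3 mice. For 8 of the 34 genes the separation was complete, with all 3 C57BL/6J mice above all 24 others, against 0.682% of all named genes. They were Ccna2, Ccnb2, Kif11, Kif20a, Nusap1, Prc1, Top2a and Ncapg. Leaving out 1 array at a time gave 13 to 18 genes higher, and 18 without C3H/HeJ replicate 2. Of the 18, 13 kept their call in the 34 refits that set no minimum difference and no other comparator, or in 33 for Cenpe, Kif20a, Nusap1 and Ncapg, which were not tested when dim probe sets were left out. Mcm3, Rrm2, Ccnb2 and Plk1 lost theirs only when a C57BL/6J mouse was left out, and Cdk1 in 25 of its 34.

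In 129S1/SvlmJ, 11 of the 34 were lower and 0 higher, against 6.43% of all named genes lower and 3.54% higher. The median difference was -0.20 over the members and -0.01 over all named genes. The 3 mice were close to each other, with the median member at -0.19, -0.19 and -0.18 from its overall mean. Cenpe and Top2a lay lower in all 3 mice than in all 24 others, a pattern shown by 1.02% of all named genes. In strains and directions other than these and Ube2c in KK/HlJ, 0 members separated completely, where 0.222% to 0.726% of all named genes did. The count was less firm than that of C57BL/6J. It was 7, 6 and 7 without 129S1/SvlmJ replicate 1, 2 and 3, and Ccnb2, Ttk, Cenpf, Kif11 and Ncapg were the genes that lost their call. Each strain is among the comparators of the other in these contrasts, so they share arrays.

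**Figure D2:**
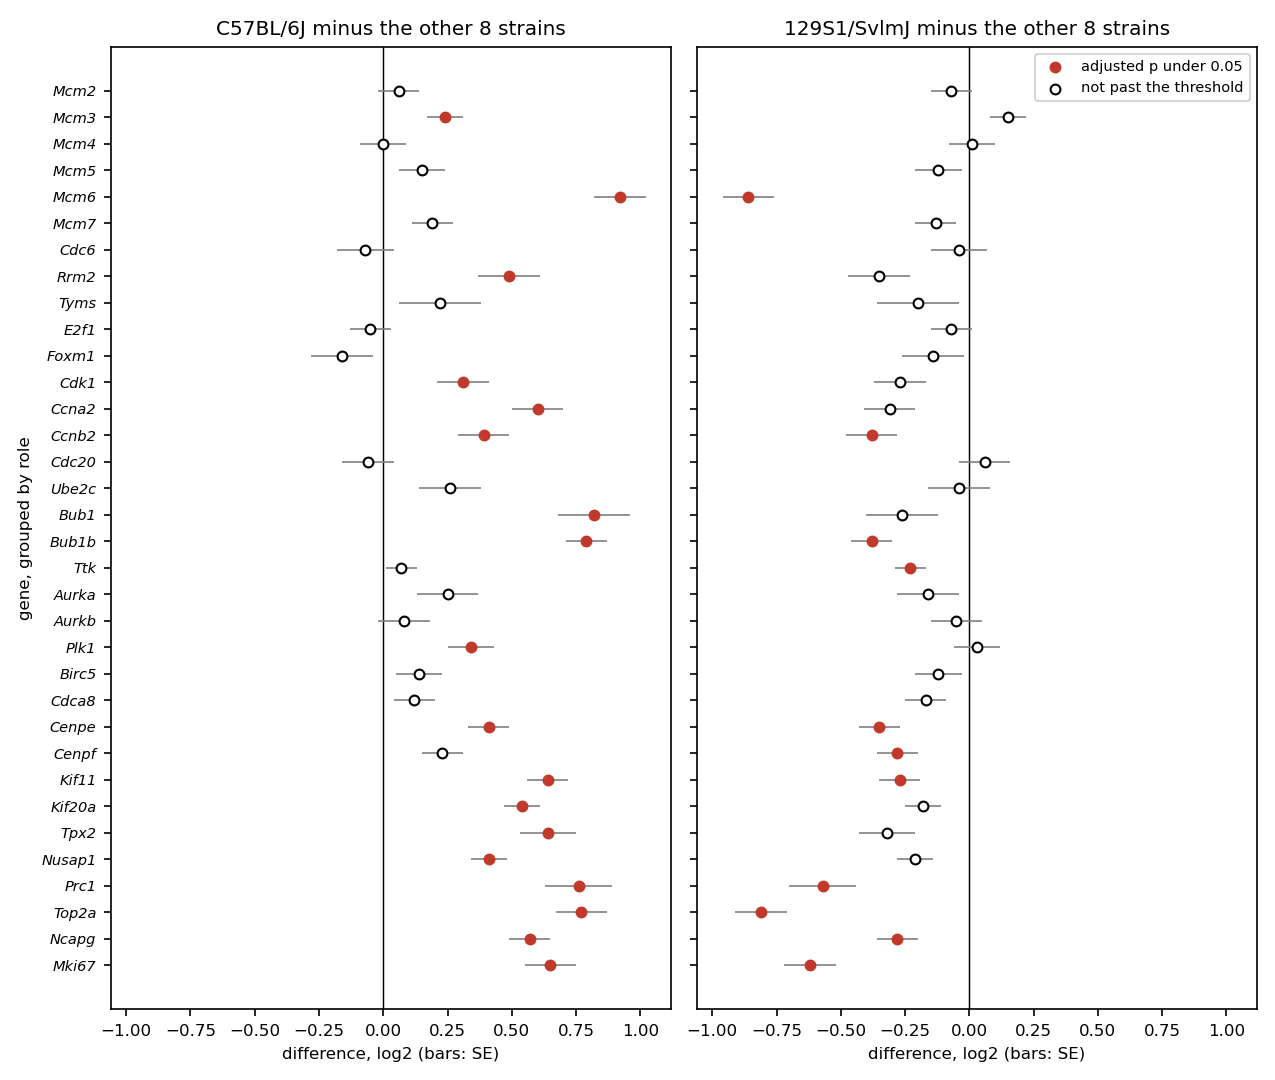
Difference in log2 signal of each cell cycle gene in C57BL/6J (left) and in 129S1/SvlmJ (right) from the mean of the other 8 strains, with bars for the standard error and filled points for an adjusted p under 0.05. In C57BL/6J 18 genes are filled to the right of 0, led by Mcm6 at 0.92, and in 129S1/SvlmJ 11 are filled to the left, led by Mcm6 at -0.86.

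Among the helicase and licensing genes, Mcm6 stood alone. The MCM proteins form the ring-shaped helicase that unwinds DNA at the fork, and Mcm6 is 1 of its subunits. Its signal was 7.83, 8.03 and 8.06 in the 3 C57BL/6J mice and ran from 6.13 through a median of 6.89 to 7.88 in the 24 others (difference 0.92 ± 0.10, SE, adjusted p = 7.76e-07). The lowest C57BL/6J mouse was just under the highest C3H/HeJ mouse (7.88) and the highest MRL/MpJ mouse (7.86). In 129S1/SvlmJ it was 6.38, 6.13 and 6.66, against 6.47 to 8.06 in the others with a median of 7.24 (difference -0.86, adjusted p = 2.46e-06).

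Unlike other members, Mcm6 divided the 9 strains into a higher and a lower set. The means ± SD (n = 3 mice each) were 7.97 ± 0.13 in C57BL/6J, 7.76 ± 0.13 in C3H/HeJ, 7.67 ± 0.14 in A/J and 7.66 ± 0.19 in MRL/MpJ. Then came 6.84 ± 0.19 in BALB/cJ, 6.83 ± 0.13 in KK/HlJ, 6.71 ± 0.14 in C57L/J, 6.58 ± 0.15 in DBA/2J and 6.39 ± 0.27 in 129S1/SvlmJ. No mouse of the first set was below 7.49 and no mouse of the second above 6.99. Mcm6 was called in 22 of the 36 strain pairs, more than any other member, and by at least 1 log2 unit in 12. Every pair of a higher with a lower strain passed, whereas no pair within the higher set did, the nearest being C57BL/6J against MRL/MpJ (0.31, adjusted p = 0.0997). Within the lower set 129S1/SvlmJ was below BALB/cJ (-0.44, adjusted p = 0.0445) and below KK/HlJ (-0.44, adjusted p = 0.0362). The sister subunits did not share this split: Mcm2, highest in BALB/cJ at 7.06 and lowest in DBA/2J at 6.55, and Mcm3, highest in C57BL/6J at 7.16 and lowest in A/J at 6.77, were the others that passed the F test. Mcm3 was 0.24 higher in C57BL/6J (adjusted p = 0.0271). Mcm4, Mcm5, Mcm7 and the origin licensing factor Cdc6 did not pass in any strain pair.

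**Figure D3:**
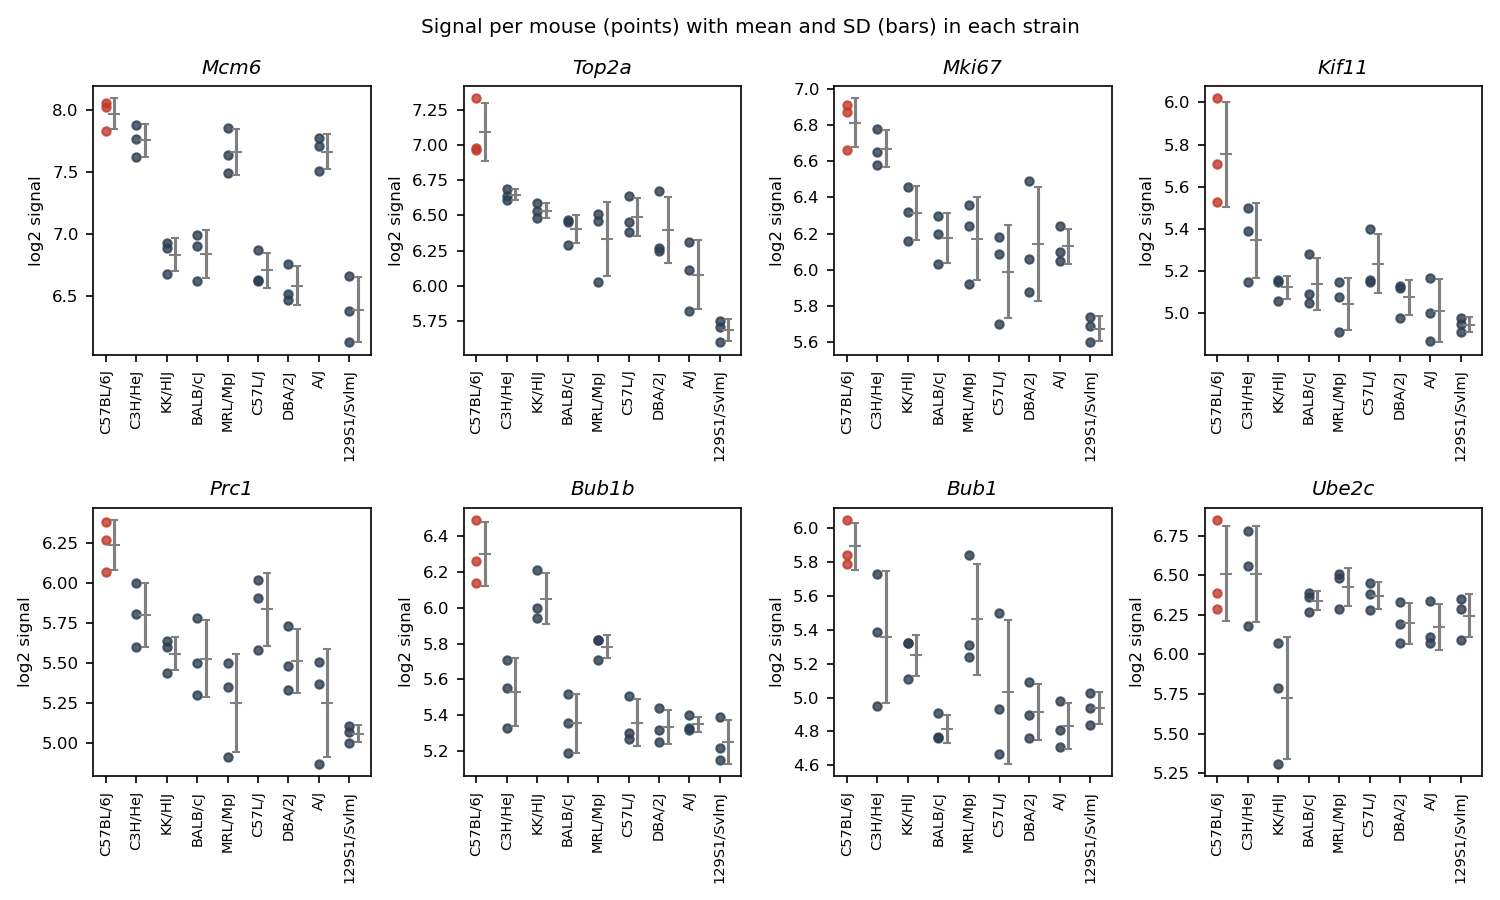
Log2 signal of 8 cell cycle genes in each mouse (points; C57BL/6J in red), with mean and SD beside them, strains ordered by the average of their members. Mcm6 falls into 4 higher and 5 lower strains, Bub1b is high in C57BL/6J and KK/HlJ, Ube2c is lowest in KK/HlJ, and the C57BL/6J points of Top2a, Kif11 and Prc1 lie above all others.

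Of the nucleotide genes, Rrm2, the cell-cycle-regulated subunit of ribonucleotide reductase, had 6.21, 6.47 and 6.09 in C57BL/6J, against 4.93 to 6.44 in the others with a median of 5.81 (difference 0.49, adjusted p = 0.00882). The ranges overlapped. Rrm2 was lower in C57L/J, at 4.93, 5.80 and 5.45, than in the other strains, at 5.45 to 6.47 with a median of 5.84 (difference -0.48, adjusted p = 0.0108), and that call was lost without C57L/J replicate 1, the lowest array. Tyms, thymidylate synthase, ranged from 5.0 in A/J to 5.40 in C57BL/6J and passed no test. The transcription factors ran another way. E2f1, a driver of S phase genes, was highest in A/J (6.30 ± 0.10) and DBA/2J (6.29 ± 0.20) and lowest in BALB/cJ (5.89 ± 0.23). Foxm1, a driver of mitotic genes, did not pass the F test. Its mean was 4.72 ± 0.09 in C57BL/6J, close to 4.74 in 129S1/SvlmJ and 4.75 in C57L/J. It was highest in C3H/HeJ (5.24 ± 0.21), 0.42 above the other strains (adjusted p = 0.0323). That call was lost without C3H/HeJ replicate 1 or 2, and with array weights.

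All 3 measured cyclin and Cdk1 genes were higher in C57BL/6J. Ccna2, the S and G2 cyclin, had 5.91, 5.89 and 5.95 there, against 4.91 to 5.76 in the others with a median of 5.26 (difference 0.60, adjusted p = 0.000446), with no overlap. Ccnb2, a mitotic cyclin, was 0.39 higher (adjusted p = 0.0138). Cdk1, their kinase partner, was 0.31 higher at an adjusted p of 0.0498, and it lost the call in 25 of 34 refits, where its adjusted p ran from 0.00706 to 0.274. In 129S1/SvlmJ Ccnb2 was the 1 of the 3 that was lower (-0.38, adjusted p = 0.0141).

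The spindle checkpoint holds anaphase back until chromosomes are attached. Bub1, a checkpoint kinase, had 5.84, 6.05 and 5.79 in C57BL/6J, against 4.67 to 5.84 in the others with a median of 4.97 (difference 0.82, adjusted p = 0.000304). The 1 array that reached the C57BL/6J range was MRL/MpJ replicate 1. Bub1b, which encodes BubR1, an inhibitor of the anaphase-promoting complex, had 6.14, 6.49 and 6.26, against 5.15 to 6.21 in the others with a median of 5.40 (difference 0.79, adjusted p = 4.63e-07). The overlap came from KK/HlJ, at 5.94, 6.00 and 6.21, where Bub1b was also higher than in the others (difference 0.52, adjusted p = 0.000139).

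Bub1b thus had an order of its own. The pair of C57BL/6J (6.30 ± 0.18) and KK/HlJ (6.05 ± 0.14) did not pass (0.25, adjusted p = 0.216). Nor did that of KK/HlJ and MRL/MpJ (5.78 ± 0.06, difference 0.27, adjusted p = 0.129). The mice of these last strains did not overlap, at 5.94 to 6.21 and 5.71 to 5.82. C3H/HeJ followed at 5.53 ± 0.19, and the other 5 strains lay between 5.25 and 5.36. It was called in 18 pairs. Ttk, the kinase that starts checkpoint signalling, was dim at 3.54 to 3.89 and was lower in 129S1/SvlmJ (-0.23, adjusted p = 0.0242), where Bub1b was lower too (-0.38, adjusted p = 0.00329).

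Cdc20 and Ube2c act on the anaphase-promoting complex, the ubiquitin ligase that ends mitosis, and neither passed in C57BL/6J or 129S1/SvlmJ. Ube2c, its ubiquitin-conjugating enzyme, singled out KK/HlJ instead, and its values per mouse are given because of that pattern. It read 5.79, 5.31 and 6.07 in KK/HlJ, against 6.07 to 6.85 in the others with a median of 6.33 (difference -0.62, adjusted p = 0.00138). All 3 mice lay below all 24 others, as did 0.509% of named genes, but the highest and the lowest of the 2 ranges both print as 6.07, and the call was lost without KK/HlJ replicate 2. Of the mitotic kinases and chromosomal passengers, Plk1 was 0.34 higher in C57BL/6J (adjusted p = 0.0162). Aurka, Aurkb, Birc5 and Cdca8 did not pass in any contrast of a strain with the others. Cdca8 passed in 1 strain pair, lower in A/J than in BALB/cJ (-0.36, adjusted p = 0.0439).

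Motor and kinetochore genes were higher in C57BL/6J in 3 of 4 cases and lower in 129S1/SvlmJ in 3 of 4. Kif11, the motor that pushes spindle poles apart, had 5.53, 6.02 and 5.71 in C57BL/6J, against 4.87 to 5.50 in the others with a median of 5.12 (difference 0.64, adjusted p = 1.59e-05). Kif20a, a cytokinesis motor, had 5.30, 5.49 and 5.26, against 4.48 to 5.09 with a median of 4.80 (difference 0.54, adjusted p = 2.31e-05). Neither overlapped with the others. Cenpe, a kinetochore motor, had 4.31, 4.35 and 3.92 in C57BL/6J, against 3.50 to 4.15 with a median of 3.83 (difference 0.41, adjusted p = 0.0011), so 1 mouse overlapped. In 129S1/SvlmJ Cenpe read 3.50, 3.50 and 3.56, against 3.60 to 4.35 in the others (difference -0.35, adjusted p = 0.00462), at the level that Y-linked genes reached. Kif11 (-0.27, adjusted p = 0.0409) and Cenpf, a kinetochore protein (-0.28, adjusted p = 0.0199), were also lower there.

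The spindle organisers Prc1, Tpx2 and Nusap1 were all higher in C57BL/6J. Prc1, which bundles microtubules at the spindle midzone, had 6.27, 6.38 and 6.07, against 4.87 to 6.02 in the others with a median of 5.50 (difference 0.76, adjusted p = 0.000243). Nusap1 had 4.78, 4.68 and 4.52, against 3.92 to 4.46 with a median of 4.26 (difference 0.41, adjusted p = 0.000235). These did not overlap with the other strains. Tpx2, an activator of Aurora A at the spindle, had 6.04, 6.38 and 6.12, against 5.15 to 6.17 with a median of 5.53 (difference 0.64, adjusted p = 0.000636), and a C3H/HeJ mouse reached into its range. In 129S1/SvlmJ Prc1 read 5.07, 5.0 and 5.11, against 4.87 to 6.38 in the others with a median of 5.59 (difference -0.57, adjusted p = 0.00447). Single A/J and MRL/MpJ mice were as low.

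The 3 genes of chromosome structure and proliferation were each higher in C57BL/6J and lower in 129S1/SvlmJ. Top2a, the topoisomerase that untangles copied DNA, had 6.98, 7.33 and 6.96 in C57BL/6J, against 5.60 to 6.69 in the others with a median of 6.45 (difference 0.77, adjusted p = 1.29e-05). In 129S1/SvlmJ it had 5.71, 5.60 and 5.75, against 5.82 to 7.33 with a median of 6.47 (difference -0.81, adjusted p = 7.05e-06). Neither strain overlapped with the other mice. Mki67, the Ki-67 antigen used as a proliferation marker in pathology, had 6.66, 6.87 and 6.91 in C57BL/6J, against 5.60 to 6.78 with a median of 6.17 (difference 0.65, adjusted p = 0.000185). In 129S1/SvlmJ it had 5.74, 5.60 and 5.69, against 5.70 to 6.91 with a median of 6.24 (difference -0.62, adjusted p = 0.000348). Here C3H/HeJ, at 6.58, 6.78 and 6.65, overlapped with C57BL/6J, and the pair did not pass (C3H/HeJ minus C57BL/6J -0.14, adjusted p = 0.545). Ncapg, a condensin subunit, had 4.38, 4.78 and 4.62 in C57BL/6J, against 3.80 to 4.27 with a median of 4.0 (difference 0.57, adjusted p = 5.58e-05). In 129S1/SvlmJ Ncapg read 3.81, 3.89 and 3.80, against 3.86 to 4.78 with a median of 4.05 (difference -0.28, adjusted p = 0.0348), so the ranges touched.

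The other 7 strains had few calls. C3H/HeJ had 4 of 34 higher and 0 lower, against 4.18% and 3.08% of all named genes. They were Mcm6 (0.67), Mki67 (0.49, adjusted p = 0.0047), Foxm1 (0.42) and Cenpf (0.26, adjusted p = 0.0362), and the count was 2 without its replicate 1 and 2 without its replicate 2, the array with muscle RNA. C3H/HeJ was among the top 2 strains for 18 of the 34, with its replicate 2 and without it, a rank not counted over all named genes. It had the highest mean for 5, as it did for 14.6% of all named genes, and for 3 without its replicate 2. A/J had 1 higher, Mcm6 (0.57, adjusted p = 0.000538), against 1.96% of all named genes. Its 3 lower genes, against 3.75%, were Top2a (-0.37), Kif20a (-0.27) and Tpx2 (-0.38), and none of the 3 kept its call without A/J replicate 1 or replicate 3. At an unadjusted p under 0.05, 13 members were lower in A/J, against 10.9% of all named genes, and the median difference of the members was -0.14. A/J was among the bottom 2 strains for 20 of the 34, a rank not counted over all named genes. It had the lowest mean for 8, as it did for 12.0% of all named genes. With array weights its calls numbered 11, of which 9 were lower.

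BALB/cJ had Mcm2 higher (0.33, adjusted p = 0.0153) and Mcm6 lower (-0.36, adjusted p = 0.0292), against 2.48% and 3.01% of all named genes. The second was lost without BALB/cJ replicate 1 or 3 and the first without replicate 2. C57L/J had 0 higher (3.69% of all named genes) and 2 lower (2.94%), Mcm6 (-0.51) and Rrm2. DBA/2J had 0 higher (2.87%) and 2 lower (1.94%), Mcm6 (-0.65, adjusted p = 0.000134) and Bub1b (-0.29, adjusted p = 0.0443), the second lost in 16 of 34 refits. The DBA/2J count was 1 when any of 13 arrays was left out. KK/HlJ had 1 higher (4.55%), Bub1b, and 2 lower (2.83%), Ube2c and Mcm6 (-0.36, adjusted p = 0.0224), the Mcm6 call being lost without KK/HlJ replicate 1 or 3. MRL/MpJ had 1 higher (6.83%), Mcm6 (0.57, adjusted p = 0.000511), and 0 lower (5.61%). It had 3 calls without A/J replicate 3, and 2 without BALB/cJ replicate 1 or 3, C3H/HeJ replicate 3, C57BL/6J replicate 3, C57L/J replicate 1, DBA/2J replicate 2 or MRL/MpJ replicate 3. In these 5 strains no direction thus held more than 2 of the 34, or 5.88%.

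Pair by pair the same picture held. Of 1224 combinations of a member with a strain pair, 187 passed, which is 15.3% against 7.31% over all named genes. C57BL/6J took part in 108 of these calls, 39.7% of its 272 combinations against 8.42% over all named genes, and the member was higher in C57BL/6J in 107 of the 108. Its pairs held between 8 genes (with C3H/HeJ, and 6 without C3H/HeJ replicate 2) and 17 genes (with A/J and with 129S1/SvlmJ). With all arrays these were 23.5%, 50% and 50% of the members, against 10.3%, 6.57% and 10.3% of all named genes. In the 28 pairs without C57BL/6J, 79 of 952 combinations passed, which is 8.3% against 6.99% over all named genes. 129S1/SvlmJ was the lower strain in 46 of its 48 calls (17.6% of its combinations against 8.43%). A/J was the lower strain in 30 of its 36 calls (13.2% against 6.25%). C3H/HeJ was the higher strain in 26 of its 34 calls (12.5% against 6.71%), and in 17 of 25 without its replicate 2 (9.19% against 5.01%). KK/HlJ had 33 calls (12.1% against 7.3%), MRL/MpJ 31 (11.4% against 9.41%) and BALB/cJ 30 (11% against 5.93%). C57L/J had 29 (10.7% against 7.23%) and DBA/2J 25 (9.19% against 6.1%). The pair with C57BL/6J is among the 8 of each of these strains, so its calls are counted again here. It gave 17 of the calls of 129S1/SvlmJ, 17 of A/J, 8 of C3H/HeJ and 13 of KK/HlJ. Of the calls of MRL/MpJ it gave 12, of BALB/cJ 14, of C57L/J 14 and of DBA/2J 13. No member was called between C57L/J and BALB/cJ or between C57L/J and DBA/2J, against 7.14% and 4.31% of all named genes. The C57BL/6J and C57L/J strains, which share their C57 origin, differed in 14 of the 34 genes (41.2% against 5.73%), all higher in C57BL/6J. With a minimum log2 difference of 1, 19 of the combinations passed (1.55% against 0.655%), 12 of them for Mcm6.

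**Figure D4:**
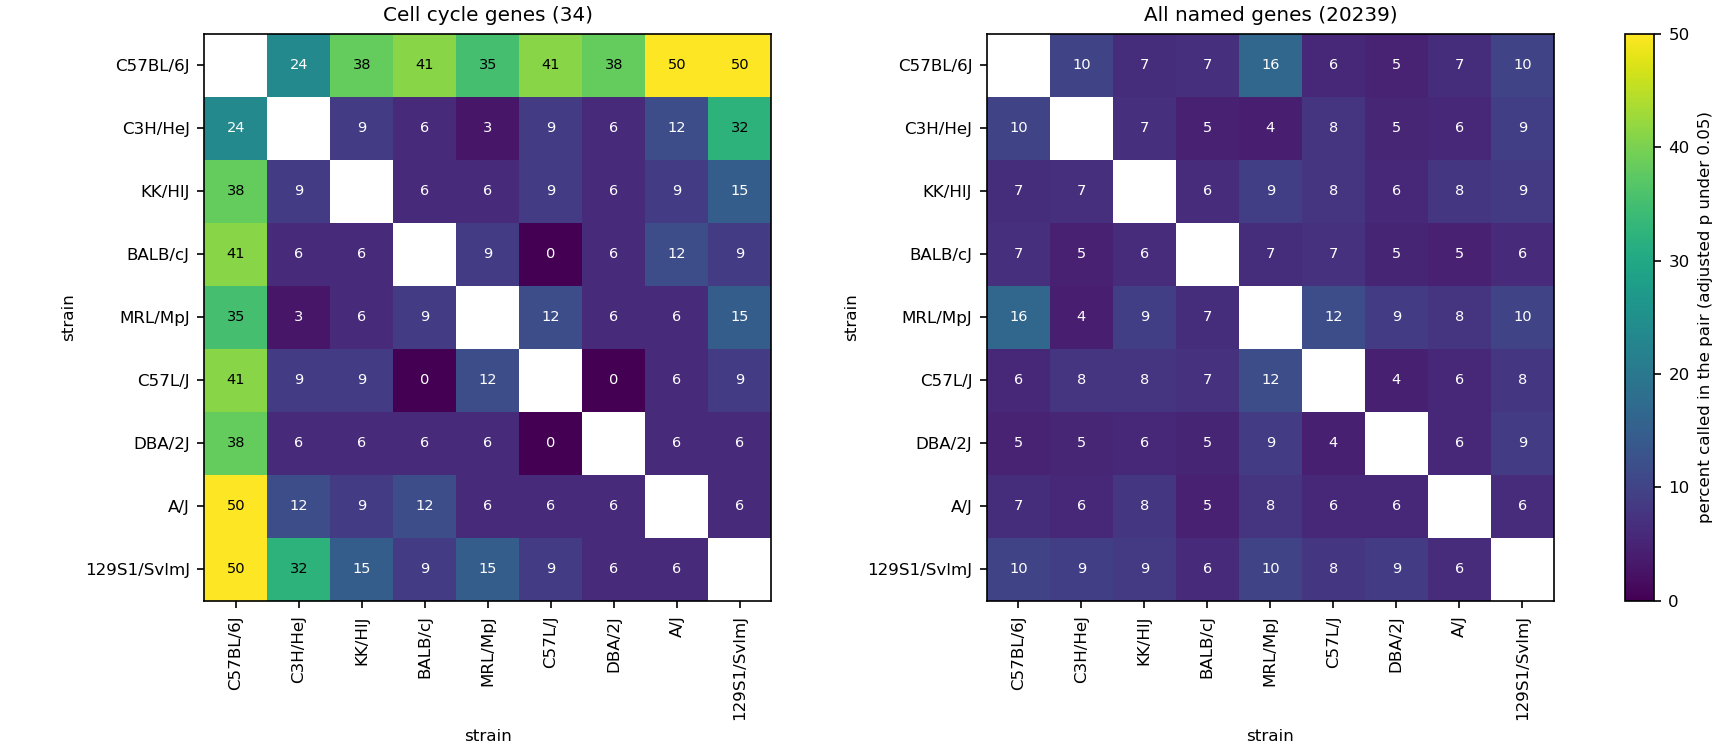
Percent of the 34 cell cycle genes (left) and of all 20239 named genes (right) called in each of 36 strain pairs at an adjusted p under 0.05, strains ordered by the average of their members. The C57BL/6J row runs from 23.5% to 50% on the left, and from 4.75% to 16.5% on the right.

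The levels of the members were correlated. Over the 9 strain means the median correlation of 561 member pairs was 0.50, against -0.01 between members and other genes. Within strains, on each mouse's deviation from its strain mean, it was 0.19, against 0.05. These are descriptions across 9 strain means and 27 arrays that share their RNA and hybridisation. Cenpe (r = 0.97), Mki67 (0.94), Tpx2 (0.93) and Kif11 (0.93) followed the average of the other members most closely over strain means. E2f1 did not (r = -0.36), nor did Cdc20 (0), and Foxm1 had 0.18. Outside the cell cycle lists, the genes most like the average of the members over 27 arrays were Esco2, which acetylates cohesin (r = 0.85), Fancc of the Fanconi anaemia complex (0.85), Aldh18a1 (0.84), Cip2a (0.84) and Fignl1 (0.84). Shcbp1 (0.80), Neil3 (0.80), Mtmr7 (0.79), Kntc1 (0.78) and Tcea3 (0.77) came next. Each of the 10 had its highest strain mean in C57BL/6J, for instance Neil3 with 5.28 against at most 4.88 elsewhere. They were picked by likeness to members that were mostly highest in C57BL/6J, so this is not a separate result. On deviations from strain means their r ran from 0.14 for Neil3 to 0.72 for Shcbp1.

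Other lists of cell cycle genes are given by their counts, and differences between lists were not tested. Of 43 other mitotic genes, 15 were higher in C57BL/6J and 0 lower (4.06% and 4.11% of all named genes), and in 129S1/SvlmJ 0 were higher and 11 lower (3.54% and 6.43%). The largest of these differences was that of Pttg1, securin, the inhibitor of the protease that splits cohesin at anaphase. It had 8.22, 8.25 and 8.23 in C57BL/6J, against 5.10 to 6.22 in the 24 others with a median of 5.57 (6.12-fold, adjusted p = 3.5e-15). The 3 mice lay far above all others. Kif23, the midbody kinesin, averaged 6.68 ± 0.14 in C57BL/6J, against 5.75 in 129S1/SvlmJ, its lowest strain (F test adjusted p = 3.48e-06). Anln, anillin, was 6.09 ± 0.10 in C57BL/6J, against 5.38 in A/J, its lowest strain (adjusted p = 0.000139), and Racgap1, of the same cytokinesis complex as Kif23, was 6.30 ± 0.03, against 5.51 in 129S1/SvlmJ (adjusted p = 0.000165).

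Replication genes gave smaller counts in C57BL/6J, where 4.06% of all named genes were higher and 4.11% lower. Of 17 origin and initiation genes 2 were higher there and 0 lower, Orc6 (0.37, adjusted p = 0.00262) and Gins4 (0.21, adjusted p = 0.0198). Cdt1 and Cdc7, also of that list, had their highest means in 129S1/SvlmJ (6.48) and BALB/cJ (5.21). Of 22 polymerase and fork genes 1 was higher, Lig1, DNA ligase I (0.29, adjusted p = 0.0101). The subunits of DNA polymerase delta had other orders, Pold3 with 7.81 in C3H/HeJ and 7.18 in MRL/MpJ (15 pairs), Pold1 with 6.82 in BALB/cJ and 6.20 in MRL/MpJ, and Pold2 with 7.13 in BALB/cJ and 6.50 in A/J. Of 8 further deoxynucleotide genes none was higher or lower in C57BL/6J. Rrm1, the partner of Rrm2, was highest in KK/HlJ at 8.88 ± 0.05 and lowest in C3H/HeJ at 8.08 ± 0.18 (F test adjusted p = 2.5e-05). Dtymk, Dck and Umps ranged over 1.35-fold, 1.22-fold and 1.26-fold, and the last 2 did not pass.

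The G1 cyclin and kinase list had 0 of 9 called in C57BL/6J, against 4.06% of all named genes higher and 4.11% lower. Ccnd1, cyclin D1, was highest in DBA/2J (10.11 ± 0.12) and lowest in BALB/cJ (9.56 ± 0.04), Cdk6 was highest in BALB/cJ (8.96) and lowest in 129S1/SvlmJ (8.47), and Ccnd2 was highest in MRL/MpJ (10.08) and lowest in A/J (9.65). Ccnd3 did not pass. Of the cyclin-dependent kinase inhibitors, 5 of 6 passed the F test, against 28.9% of all named genes. Cdkn1a, p21, was 8.33 ± 0.10 in C57L/J and 8.20 ± 0.29 in A/J, against 7.22 to 7.56 in the other 7 strains (adjusted p = 1.5e-05). Cdkn2b was 7.80 ± 0.29 in 129S1/SvlmJ, where it was higher than in the others (0.51, adjusted p = 0.00187), and 6.99 ± 0.12 in C57BL/6J, where it was lower (-0.40, adjusted p = 0.0156). Cdkn2a was lower in C57BL/6J too (-0.26, adjusted p = 0.0298). Cdkn1c ranged from 8.46 in BALB/cJ to 7.80 in KK/HlJ, and Cdkn2c from 7.96 in KK/HlJ to 7.13 in A/J. Of 17 RB, E2F and DREAM genes, Rbl1 was higher in C57BL/6J (0.22, adjusted p = 0.049). In 129S1/SvlmJ E2f3 was lower (-0.42, adjusted p = 0.000147) and Tfdp2 higher (0.27, adjusted p = 0.0328), while E2f6 did not pass the F test.

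**Figure D5:**
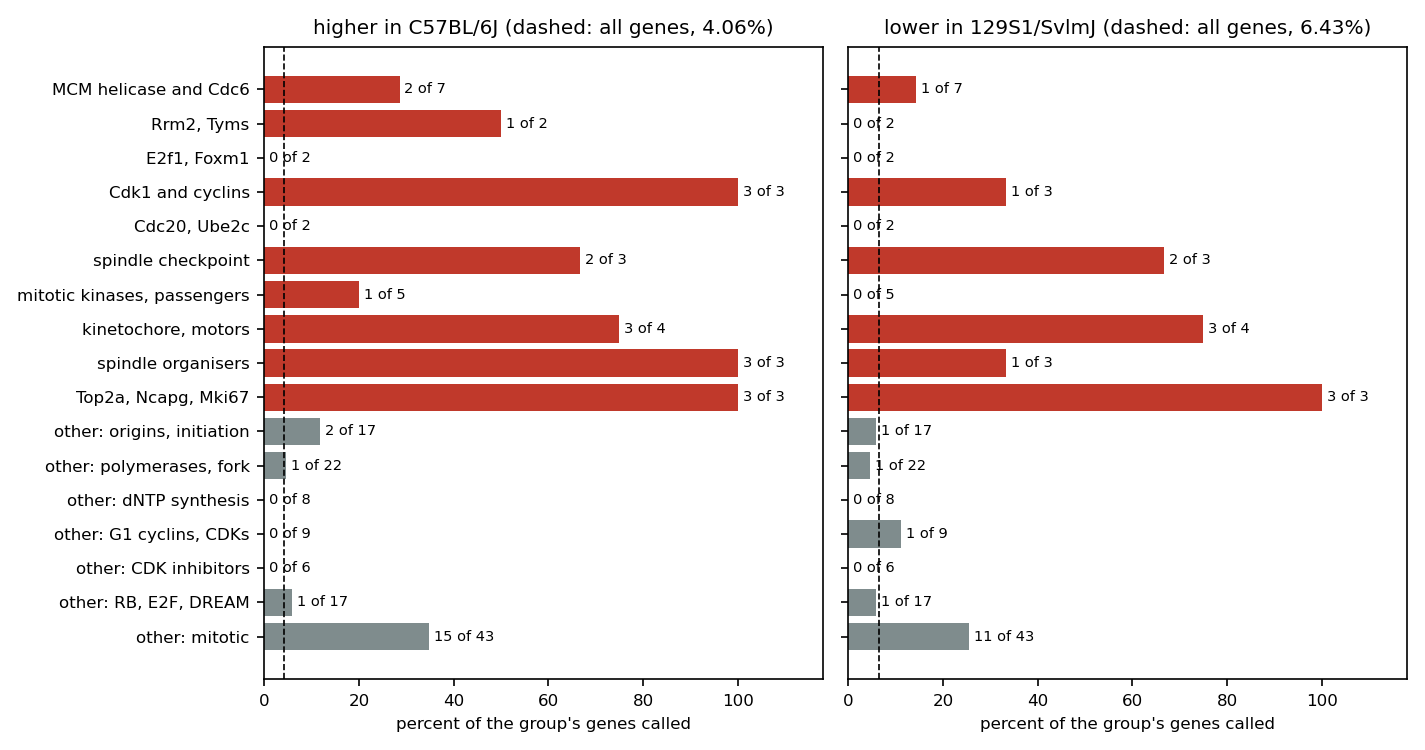
Percent of the genes of each group called higher in C57BL/6J (left) and lower in 129S1/SvlmJ (right) at an adjusted p under 0.05, red for the members by role and grey for other cell cycle lists, with the share of all named genes dashed. The bars reach 3 of 3 for spindle organisers in C57BL/6J, against 0 of 8 for other deoxynucleotide genes and 0 of 9 for G1 cyclins and kinases.

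Cell type markers moved with these differences to different degrees. In 129S1/SvlmJ 7 of 11 B cell markers were lower and 0 higher, with a summed linear signal of 785 to 1020, against 865 to 1980 in the others. Their median difference was -0.57. Of all named genes, 6.43% were lower and 3.54% higher in that contrast. There too 5 of 8 NK cell markers, 4 of 5 megakaryocyte markers, 3 of 7 monocyte and neutrophil markers, 3 of 8 endothelial markers and 3 of 8 cardiac markers were lower. The T cell, thymocyte and erythroid lists had 1 lower each, lung epithelium 1 higher and 2 lower, alveolar macrophages 2 higher, and germinal centre and plasma cells 1 higher, with 0 called for fibroblast and smooth muscle, skeletal muscle and adipocyte markers. Their part in the lower mitotic genes of 129S1/SvlmJ was not tested. In C57BL/6J 0 of 11 B cell markers passed in either direction, at 1360 to 1860 against 785 to 1980. Of all named genes, 4.06% were higher and 4.11% lower there. The B cell median difference was 0.38, near that in BALB/cJ (0.36) and DBA/2J (0.35). Megakaryocyte and NK cell markers had medians of 0.37 and 0.34 in C57BL/6J, against -0.05 over all named genes. The other marker lists in C57BL/6J lay between -0.42 (adipocyte) and 0.13 (lung epithelium). T cell markers had 0 of 8 called there, thymocyte markers 1 of 11 (583 to 646, against 524 to 756), and erythroid markers 0 of 9. NK cell markers had 2 of 8 higher (649 to 761, against 276 to 882), megakaryocyte markers 1 of 5, monocyte and neutrophil markers 1 of 7, and lung epithelial markers 2 higher and 1 lower of 10 (38400 to 40000, against 33800 to 38700). Fibroblast and smooth muscle markers had 2 of 9 higher (8540 to 9460, against 7160 to 9550) and alveolar macrophage markers 2 higher and 2 lower of 10 (5140 to 5730, against 3120 to 7860). Cardiac markers had 2 of 8 lower (3150 to 3610, against 2250 to 6330), and germinal centre and plasma cell markers 1 of 7 lower. Endothelial, skeletal muscle and adipocyte markers had 0 called. The part of these in the C57BL/6J difference was not tested.

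Adenoma class was compared over strain means, because mice of a strain share it. No member passed in any of the 3 comparisons, either way. For severity the 7 increased strains were set against the 2 decreased, and 0 of 34 were higher (0% of all named genes) and 0 lower (0.00988%). For frequency the 3 increased were set against the 6 decreased, with 0 higher (0%) and 0 lower (0%). The 3 strains increased in both were set against the 2 decreased in both, with 0 higher (0%) and 0 lower (0.00494%). The smallest adjusted p of a member was 0.696, 0.647 and 0.596. At an unadjusted p under 0.05, 0 members were higher and 1 lower by severity, against 2.01% and 5.03% of all named genes. By frequency 1 was higher and 1 lower, against 1.59% and 6.11%, and for both classes 0 and 0, against 1.85% and 6.77%. The median difference of the members was 0 for severity, 0.07 for frequency and 0.04 for both, against -0.03, -0.04 and -0.05 over all named genes.

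Values of the proliferation markers by class overlapped. Mki67 averaged 6.36 ± 0.39 in the 3 strains with frequency increased and 6.17 ± 0.33 in the 6 with it decreased (SD over strain means, difference 0.20 ± 0.21, SE, adjusted p = 0.804). By severity it was 6.23 ± 0.39 in 7 increased and 6.24 ± 0.10 in 2 decreased strains. Top2a averaged 6.52 ± 0.52 with frequency increased and 6.35 ± 0.34 with it decreased (difference 0.17, adjusted p = 0.856). The 2 strains that stood apart most, C57BL/6J and 129S1/SvlmJ, share the label of increased severity. Strain means did not overlap for 1 member by severity (6.69% of all named genes), Birc5, the passenger subunit survivin, with 5.07 ± 0.11 in increased and 5.26 ± 0.02 in decreased strains. By frequency it was 1 member (3.92%), Cdc6, with 5.19 ± 0.04 in increased and 5.35 ± 0.07 in decreased strains. For both classes it was 3 (27%), Cdc6, Aurka and Birc5. E2f1 was 6.20 ± 0.17 with frequency increased and 5.98 ± 0.06 with it decreased (0.22, adjusted p = 0.647). These counts lie at or below those of all genes, and 2 to 7 strains a class limit what could pass.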

How the data were processed

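RNA of right lung was measured on 27 arrays of the Mouse Gene 1.0 ST type, 3 mice for each of 9 strains. The deposited table holds log2 signal, 1 value per probe set for 21225 probe sets. The affy package is named in the submitters' processing notes, without a version. Normalization steps are not given in the sources used here. Array names carry run numbers and no extraction batch. A single gene symbol was given to 20239 probe sets and none to 986, which were left out of the tests. The tests took these values without rescaling them.

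Computations used R 4.3.3 and limma 3.58.1. A model with 1 mean per strain was fitted to all arrays with lmFit and eBayes. From it came the moderated F test, each strain against the mean of the other 8, and the 36 strain pairs, with Benjamini-Hochberg adjustment over all named genes within each contrast and calls at an adjusted p under 0.05. Adenoma classes were compared by limma on 9 strain means. Known changes in simulated arrays served as a check of the fits. Replicates are separate mice of a strain. The numbers on replicates did not pair the mice: same-numbered arrays of different strains correlated at -0.27 to 0.28 in their deviations from strain means.

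The members and lists were chosen with earlier results of these data known. Values per mouse are given for the 14 members with the smallest F test p, for Ube2c, and the other lists by up to 4 genes of smallest F test p. Cdkn2a, Pttg1 per mouse, and the genes lower in 129S1/SvlmJ were named after their values were seen. The 10 genes most like the members were ranked by Pearson's r with the mean of the members over 27 arrays. Summed marker signal is the sum of 2 to the power of the log2 signal. The alternatives changed the scaling (quantile or median), the probe sets (without dim ones of mean under 5, or with unnamed ones), the variance model (intensity trend and robust prior, or array weights), the design (a block for replicate number), the minimum difference, or left out each array in turn. Leaving out each strain from the comparator was chosen after seeing the data.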

Additional observations from a re-analysis of the deposited data

Results flagged for a closer look

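Within adenoma classes, 6 strain means stood apart from the other strains of their class, by a gap to the nearest strain that was large beside the range of the class. Chance flags about 1 in 20 groups, and 68 groups were looked at. Among the 7 strains with severity increased, Bub1b was highest in C57BL/6J at 6.30, with 5.53 in the next strain. Ncapg was highest in C57BL/6J at 4.59, with 4.15 next. Among the 6 strains with frequency decreased, Foxm1 was highest in C3H/HeJ at 5.24, with 4.88 next. Ccnb2 was lowest in 129S1/SvlmJ at 5.46, with 5.79 next, and Top2a was lowest there at 5.68, with 6.33 next. Ube2c was lowest in KK/HlJ at 5.72, with 6.24 next.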

How the results depend on the processing

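The F test count of 23 stayed between 17 and 24 over all alternatives. The 17 came without dim probe sets, where Ttk, Cenpe, Cenpf, Kif20a, Nusap1 and Ncapg, called in the main fit, were not tested. The adenoma classes had 0 calls under each alternative run, with smallest adjusted p of 0.232 to 0.908 for severity, 0.422 to 0.995 for frequency and 0.373 to 0.793 for both. Of 2782 recomputed single-gene values, 2586 kept their side of the threshold, 190 lost their call, 6 gained one and 0 reversed direction. F test values have no direction and could not reverse. The others were strain contrasts called in the main fit, so only F test values could gain a call. Leaving out 1 array at a time gave 13 to 18 calls for C57BL/6J (18), 6 to 13 for 129S1/SvlmJ (11), 1 to 6 for A/J (4), 2 to 5 for C3H/HeJ (4), 1 to 3 for BALB/cJ (2), for C57L/J (2), for DBA/2J (2) and for MRL/MpJ (1), 2 to 4 for KK/HlJ (3), and 146 to 193 for the pairs (187). The lowest counts of C57BL/6J and of the pairs came without C57BL/6J replicate 2. Quantile normalization gave 1 for DBA/2J and 4 for MRL/MpJ, and median centring 2 for A/J and 2 for MRL/MpJ. Leaving out dim probe sets gave 2 for C3H/HeJ, as Foxm1 and Cenpf were then not tested, and the intensity trend gave 1 for DBA/2J. Array weights gave 11 for A/J, 2 for C3H/HeJ and 5 for DBA/2J. A minimum difference of 0.5 left 11 for C57BL/6J, 4 for 129S1/SvlmJ, 1 each for DBA/2J, A/J, C57L/J and C3H/HeJ, and 0 for BALB/cJ, and a minimum of 1 left 19 in the pairs. With 1 strain left out of the comparator, A/J had 7, C57L/J 4 and MRL/MpJ 4 without 129S1/SvlmJ. Without C57BL/6J there were 7 for C3H/HeJ, 3 for MRL/MpJ, and 1 each for A/J, BALB/cJ and DBA/2J. MRL/MpJ had 3 without A/J, and 2 without BALB/cJ, C57L/J, DBA/2J or KK/HlJ. DBA/2J had 1 without KK/HlJ or MRL/MpJ, and BALB/cJ 1 without MRL/MpJ. Other than for the dim genes left out, the cause of these shifts was not tested. With the replicate block, where the number is only a label, 21 passed the F test, 17 were higher in C57BL/6J, 12 lower in 129S1/SvlmJ and 191 passed in the pairs. On their deviations from strain means, 11 of 27 arrays correlated best with an array of their own number. Scaling moved an array's median by at most 0.08. With 3 arrays per strain and dim signals, small differences could not be detected.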

Other observations

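Some genes near Bub1b and Bub1 on the chromosome, chosen after their values were seen, set the same strains apart, higher or lower. Ankrd63, close to Bub1b on chromosome 2, had strain means of 7.55 for KK/HlJ, 7.15 for MRL/MpJ and 7.02 for C57BL/6J, the 3 strains with the most Bub1b, against 5.44 to 5.75 in the other 6. Pak6, the nearest gene to Bub1b among those measured on that side, ran the opposite way, with means of 5.28 for C57BL/6J, 5.21 for KK/HlJ and 5.73 for MRL/MpJ, against 6.03 to 6.24 in the other 6. Over 9 strain means their correlation with Bub1b was 0.89 and -0.96. Acoxl, beside Bub1, was 10.15 in C57BL/6J and 10.08 in MRL/MpJ, against 9.36 to 9.65 in the other 7, with a correlation of 0.88 with Bub1. The 6 measured genes around Mcm6 did not show its split, with correlations of -0.34 to 0.31. The other genes looked at around Bub1b and Bub1 ran from -0.66 to 0.66 and from -0.20 to 0.71. Those around Top2a, Mki67 and Ube2c ran from -0.76 to 0.35, from -0.76 to 0.43 and from 0.25 to 0.76. How many of all named genes correlate so over 9 strain means was not counted.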
